A study of Drosophila melanogaster with 6 samples.

Results

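The genes described here are listed as neuropeptide precursor genes of the fly. They were taken by name from a list of 32 *Drosophila melanogaster* symbols. This rule uses no measured value, although the list was drawn up with earlier results of these data known. Of these 32 genes, 31 had a row among the 17559 genes of the count files, and *Nplp2* was not analysed here. The list is named for precursors, but *amon* encodes the proprotein convertase that cuts the precursors and is no precursor itself. Members named neuropeptide-like, *Nplp3* among them, were kept by name alone, and whether they act as neuropeptides was not tested.

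RNA was sequenced from whole heads of female flies in 2 control groups of 3 libraries each, every library being a biological replicate made from a pool of 35 to 40 heads. The Dicer2 25°C control was heterozygous for a w[1118],Elav-GAL4 chromosome over w[1118] and also carried UAS-Dicer2 over a wild-type chromosome, and was reared at 25°C. The RT control had a w[1118],Elav-GAL4 chromosome over w[1118] with no Dicer2 transgene, and its rearing was at room temperature, for which the labels give no number of degrees. *Elav-GAL4* drives expression in all neurons, Dicer2 is the nuclease that cuts double-stranded RNA and is added in RNAi experiments to strengthen knockdown, and the control flies of both groups came from the same VDRC wild-type line and held no RNAi construct. The age of the flies is not given in the sources used here. The study's methods list separate *Elav-GAL4* stocks with and without *UAS-Dicer2*, from different laboratories. Because the driver stock, the transgene and the rearing temperature changed together, their parts in a difference between the groups cannot be told apart.

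Neuropeptides are made as larger precursor proteins that enter the secretory pathway, are cut at basic residues, often amidated at their ends, and stored in dense core vesicles until release. Most act on G protein-coupled receptors, as modulators within the brain or as hormones in the haemolymph. In the fly brain many of them are made by small sets of neurons or neurosecretory cells, so a gene can be strong in its own cells and still contribute few reads to a whole head. In such bulk RNA, fewer cells of a type and less RNA per cell cannot be told apart.

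The libraries held between 18651266 and 42487803 reads on genes, so that a count of 3, the detection floor used here, equalled 0.0711 to 0.157 CPM (counts per 1e6 reads, scaled by the trimmed mean of M values). *Dcr-2*, the gene that the transgene expresses, had 572 ± 57.6 CPM with the transgene and 58.1 ± 3.03 CPM without it (SD, n = 3 libraries per group), as the labels state. All 5 neuronal markers examined were present in every library, and none of them passed the test between the groups. Summed markers of body segments behind the head (2.41 to 3.71 CPM), ovary (0.142 to 0.629 CPM) and gut (0.0305 to 0.128 CPM) were low in all libraries. Some libraries stood apart from their group. Dicer2 25°C replicate 1 had 69361668 alignments that were not unique, against 7164088 to 8454145 in the others. *Hsp26*, a small heat shock gene, reached 1058 CPM in RT replicate 3 against 5.76 to 154 CPM elsewhere. The clock genes *per*, *tim* and *vri* summed to 764 CPM in Dicer2 25°C replicate 3 (178 and 187 CPM in the other replicates) and to 1309 CPM in RT replicate 1 (334 and 361 CPM in the others). Values with and without these libraries stand beside the results they touch.

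Of the 31 genes, 29 had at least 3 counts in every library. The exceptions were *RYa*, with 5, 5, 6, 5, 3 and 1 counts, and *amn*, with 3, 6, 2, 10, 8 and 10 counts in Dicer2 25°C replicates 1 to 3 and RT replicates 1 to 3. *RYa* encodes RYamide peptides, and *amn* is a memory gene whose product has been likened to the vertebrate peptide PACAP. In CPM the RT libraries of *RYa* (0.0305 to 0.153) were all below the Dicer2 25°C libraries (0.196 to 0.262), and those of *amn* overlapped them. Neither gene was tested, and the floor covers counting error only. *Akh*, the adipokinetic hormone that mobilises stored lipid and sugar, is made in the corpora cardiaca and had 4 to 8 counts per library. These 3 genes fell below the expression filter, and 28 members were tested.

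Levels between genes were compared per kilobase of merged exons. The 31 genes spanned from *amn* at 0.0539 CPM per kb to *Nplp3* at 2660 CPM per kb, as a mean over the 6 libraries. Of the 31, 15 stood above the 90th percentile of all genes by level per kilobase, 11 lay between the 50th and the 90th percentile, and 5 lay below the 50th (*CCAP*, *AstCC*, *Akh*, *RYa* and *amn*). These percentiles rank all 17253 genes matched to the annotation, including those too low to be tested. Most members, 21 of the 31, lay between 11.5 CPM per kb (*FMRFa*) and 84.7 CPM per kb (*amon*). In the order by level, 25 of the 30 neighbouring pairs had ranges over the libraries that overlapped. The steps that did not overlap followed *Nplp3*, *Nplp4*, *FMRFa*, *CCHa1* and *CCAP*.

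**Figure D1:**
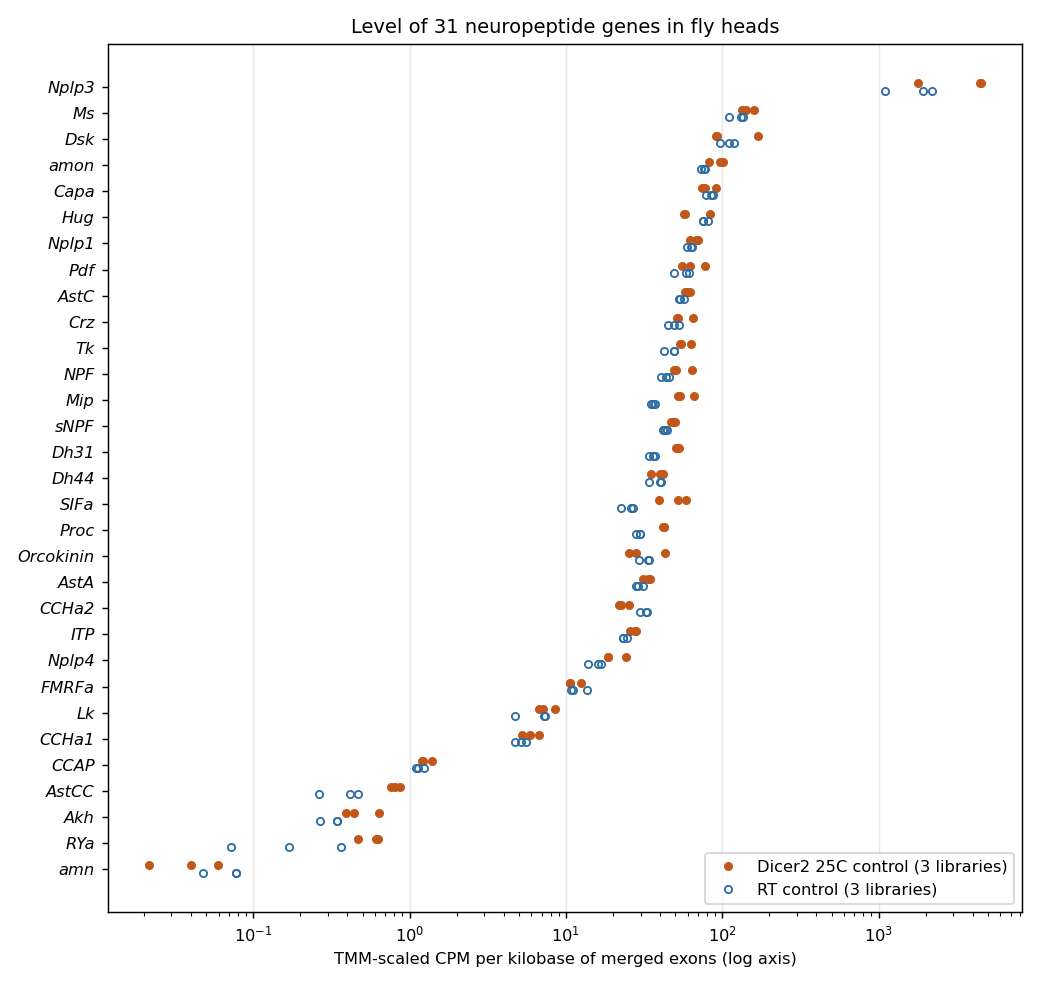
Level per kilobase of merged exons (CPM per kb, log axis) of the 31 neuropeptide genes in each of the 6 libraries, ordered by their mean, with 1 point per library and colours for the groups. *Nplp3* stands alone at the top, 19.6 times above *Ms*, and *AstCC*, *Akh*, *RYa* and *amn* lie under 1 CPM per kb.

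*Nplp3*, a neuropeptide-like precursor of 90 residues on chromosome 3L, had 2424, 2394 and 959 CPM in the Dicer2 25°C libraries and 589, 1040 and 1181 CPM in the RT libraries. Its mean level per kilobase was 19.6 times that of the next gene, and it alone supplied 26.5% to 55.5% of all reads on members. The groups overlapped, because Dicer2 25°C replicate 3 lay below RT replicates 2 and 3.

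*Ms*, the precursor of myosuppressin, which quiets visceral muscle and the heart, was second at 136 CPM per kb. Its libraries held 158, 168 and 188 CPM in the Dicer2 25°C control and 131, 156 and 159 CPM in the RT control. The third was *Dsk*, the precursor of the cholecystokinin-like drosulfakinins that signal satiety, at 113 CPM per kb. *Dsk* had 51.6, 52.8 and 96.1 CPM against 55.0, 63.0 and 67.7 CPM, so that its highest and lowest libraries were both of the Dicer2 25°C control. Neither gene passed the test between the groups.

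The convertase gene *amon* came next per kilobase, at 84.7 CPM per kb. *Capa*, whose peptides act on the Malpighian tubules, followed at 82.2 CPM per kb with 53.9, 51.5 and 62.9 CPM in the Dicer2 25°C libraries and 60.6, 54.8 and 59.3 CPM in the RT libraries. *Hug*, which encodes a pyrokinin that restrains feeding, was at 71.8 CPM per kb. Its values were 59.8, 58.5 and 86.4 CPM in the first group and 84.1, 78.3 and 77.9 CPM in the second, where only Dicer2 25°C replicate 3 reached the level of the RT libraries.

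The last of the 8 highest were *Nplp1*, the precursor of several peptides found in the adult brain, at 64.4 CPM per kb, and *Pdf*, the peptide by which clock neurons signal, at 60.7 CPM per kb. *Nplp1* had 189, 184 and 167 CPM in the Dicer2 25°C control and 160, 171 and 172 CPM in the RT control. *Pdf* had 42.2, 37.8 and 53.1 CPM against 33.5, 39.9 and 41.4 CPM. The groups overlapped for both genes. The library of *Pdf* farthest from the others was Dicer2 25°C replicate 3, its highest, in the first group. In the second group it was RT replicate 1, its lowest. These libraries were also the farthest for 56.5% and 56.4% of all genes. The clock genes were high in both, and their part in the level of *Pdf* was not tested. By CPM without regard to length, 4 of the 8 stayed among the 8 highest.

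The remaining genes between 10 and 100 CPM per kb include peptides of feeding, water balance and behaviour. *AstC*, a somatostatin-like allatostatin, and *Crz*, corazonin, a stress hormone related to adipokinetic hormone, were at 57.1 and 52.5 CPM per kb. Near them were the brain peptides *Tk* (tachykinins, 51.8 CPM per kb), *NPF* (neuropeptide F, related to neuropeptide Y, 48.9 CPM per kb) and *sNPF* (short neuropeptide F, which promotes feeding, 45.6 CPM per kb). The diuretic hormones *Dh31*, calcitonin-like, and *Dh44*, related to corticotropin-releasing factor, were at 43.6 and 38.6 CPM per kb, and *ITP*, the antidiuretic ion transport peptide, was at 25.5 CPM per kb. *Lk*, leucokinin, which drives fluid secretion by the tubules, was at 6.94 CPM per kb, *CCHa1*, a CCHamide, at 5.56 CPM per kb and *CCAP*, the crustacean cardioactive peptide, at 1.21 CPM per kb.

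The comparison of the groups asked how far these levels differed between 2 controls that differ in driver stock, Dicer2 and rearing temperature. None of the 28 members tested passed both thresholds of the study, which ask for a log2 fold change beyond 1 in either direction with an adjusted p under 0.05 (edgeR quasi-likelihood test, Benjamini-Hochberg adjustment over all 10187 genes tested), against a background of 2.82% of all genes. By other tools, 2 members passed both with DESeq2 (*AstCC* and *Nplp3*, beside 4.29% of all genes) and 1 with edgeR's likelihood ratio test (*AstCC*, beside 4.86%). At an unadjusted p under 0.05 there were 13 members, 46.4%, against 30.7% of all genes. At an adjusted p under 0.05 alone, 5 of the 28 were called, 17.9%, against 10.1% of all genes. *Dh31*, *Proc*, *Mip* and *SIFa* fell in the RT control (4 members, beside a background of 4.83% of genes lower), and *CCHa2* rose (1 member, beside 5.28% higher).

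The members as a whole lay on the low side. The log2 fold change of RT over Dicer2 25°C was below 0 for 24 of the 28 genes, 85.7%, against 50.5% of all genes, and its median was -0.20 against -0.004 over all genes tested. It was under 0.5 in size for 22 members and under 1 for 26, the exceptions being *Nplp3* and *AstCC*. The libraries of the groups did not overlap for 13 members, 46.4%, against 37.5% of all genes. In 12 of these 13 the RT libraries were all below the Dicer2 25°C libraries (18.0% of all genes), and in 1, *CCHa2*, they were all above (19.5% of all genes). Marker lists moved as well: the log2 fold change was below 0 for 5 of 5 neuronal markers (median -0.15; summed level 3578 to 4892 CPM in the Dicer2 25°C libraries and 3637 to 3802 CPM in the RT libraries) and 5 of 5 photoreceptor markers (median -0.22; 64030 to 78540 CPM and 54770 to 56420 CPM). It was above 0 for 4 of 4 glial markers (median 0.17; 551 to 583 CPM and 564 to 677 CPM) and 5 of 5 fat body markers (median 0.65). None of these genes was at 0 in all libraries, and the part of the makeup of the heads in the members' values was not tested. Without the libraries high in clock genes, 20 of the 28 fold changes were below 0 with a median of -0.15.

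**Figure D2:**
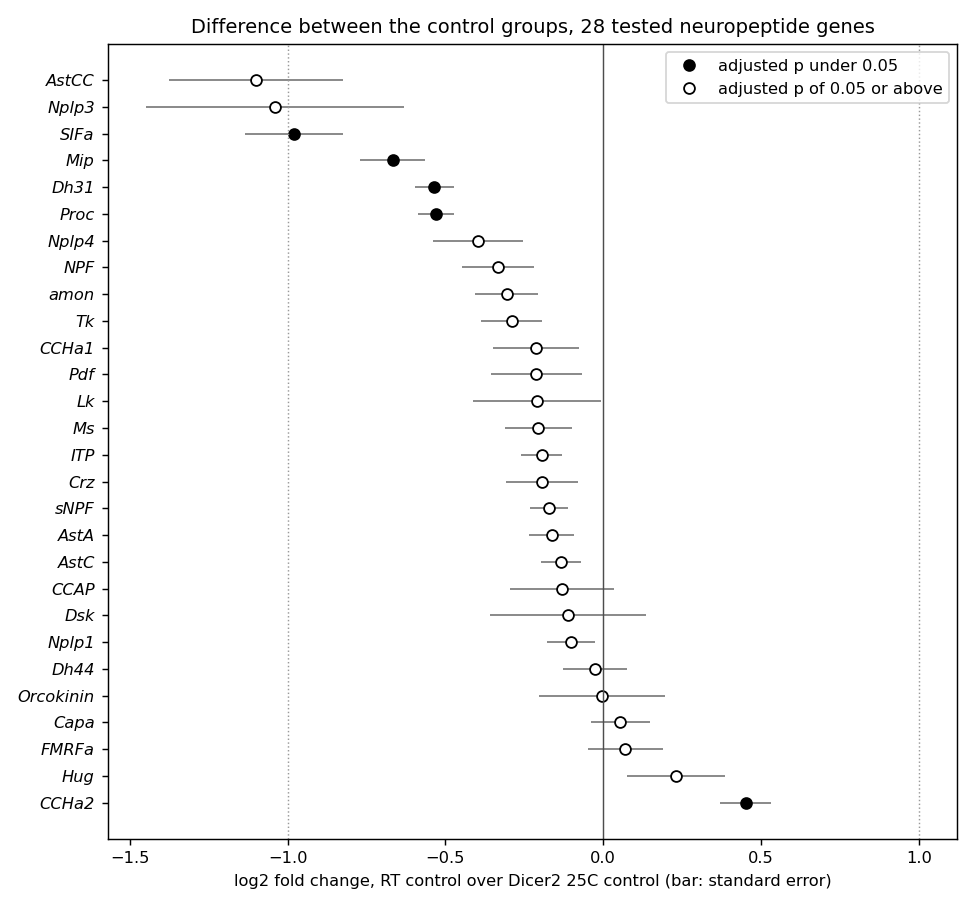
Log2 fold change of RT over Dicer2 25°C (± SE, edgeR) of the 28 neuropeptide genes tested, with filled points where the adjusted p was under 0.05 and dotted lines at 1 and -1. The 4 filled points on the left are *SIFa*, *Mip*, *Dh31* and *Proc*, the filled point on the right is *CCHa2*, and the points past -1, *Nplp3* and *AstCC*, are open.

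*Dh31* encodes the calcitonin-like diuretic hormone, which acts on the Malpighian tubules and the gut and, in the brain, on sleep and activity (FBgn0032048, chr2L:8491868-8506845, minus strand, Release 6). Its 3 Dicer2 25°C libraries held 65.6, 66.0 and 68.9 CPM and its 3 RT libraries 44.1, 46.4 and 47.9 CPM. The groups were clearly apart, and the difference between their means was larger than the range within either. The mean fell from 66.9 ± 1.79 to 46.1 ± 1.87 CPM (SD, n = 3), a log2 fold change of -0.54 (SE 0.06, adjusted p = 0.00973, edgeR quasi-likelihood test).

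*Proc* encodes proctolin, a short peptide that stimulates muscle contraction (FBgn0045038, chr2L:7864642-7871432, minus strand). The Dicer2 25°C libraries had 84.4, 82.3 and 83.7 CPM, and the RT libraries 58.9, 58.7 and 55.9 CPM. The replicates lay close together, and the mean fell from 83.5 ± 1.04 to 57.8 ± 1.67 CPM (SD, n = 3). The log2 fold change was -0.53 (SE 0.06, adjusted p = 0.00781, edgeR quasi-likelihood test), the lowest adjusted p among the members.

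*Mip* encodes the myoinhibiting peptides, also known as allatostatin B, which are ligands of the sex peptide receptor (FBgn0036713, chr3L:17344947-17349666, minus strand). It had 72.8, 74.6 and 92.4 CPM in the Dicer2 25°C libraries and 48.8, 50.5 and 51.8 CPM in the RT libraries. Dicer2 25°C replicate 3 was the highest, and the groups stayed apart without it. The mean fell by 37.0%, from 80.0 ± 10.8 to 50.4 ± 1.5 CPM (SD, n = 3), with a log2 fold change of -0.67 (SE 0.10, adjusted p = 0.0176, edgeR quasi-likelihood test).

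*SIFa* encodes SIFamide, made by a few neurons of the pars intercerebralis and known for its part in courtship, sleep and feeding (FBgn0053527, chr2R:24577566-24578143, minus strand). Its values were 27.3, 30.7 and 20.6 CPM in the Dicer2 25°C control and 11.9, 14.1 and 13.8 CPM in the RT control. The lowest library of the first group was still above the highest of the second. The mean fell from 26.2 ± 5.14 to 13.3 ± 1.21 CPM (SD, n = 3), a drop of 49.3% and a log2 fold change of -0.98 (SE 0.16, adjusted p = 0.0195, edgeR quasi-likelihood test), which is just short of the fold threshold. Of the exon bases of *SIFa*, 21.1% lie over exons of *Start1* on the opposite strand. *Start1* had 5367 counts over the 6 libraries, and since the strand setting of the counting is not given in the sources used here, the value of *SIFa* is uncertain to that extent.

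*CCHa2*, the member that rose, encodes a CCHamide made in gut and fat body as well as in the brain, which in larvae promotes the release of insulin-like peptides (FBgn0038147, chr3R:13389059-13395197, minus strand). The Dicer2 25°C libraries held 36.7, 31.9 and 33.0 CPM and the RT libraries 43.7, 47.2 and 48.0 CPM. All RT libraries were higher. The mean rose by 36.7%, from 33.9 ± 2.52 to 46.3 ± 2.31 CPM (SD, n = 3), with a log2 fold change of 0.45 (SE 0.08, adjusted p = 0.0245, edgeR quasi-likelihood test). The 5 fat body markers summed to 14810 to 24240 CPM in the Dicer2 25°C libraries and 31880 to 45670 CPM in the RT libraries, and 1 of the 5, *Yp3*, had an adjusted p under 0.05. The libraries of *Yp2* and *Lsp2* overlapped between the groups. None of the 5 was at 0 in all libraries, and the part of fat body in the value of *CCHa2* was not tested.

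**Figure D3:**
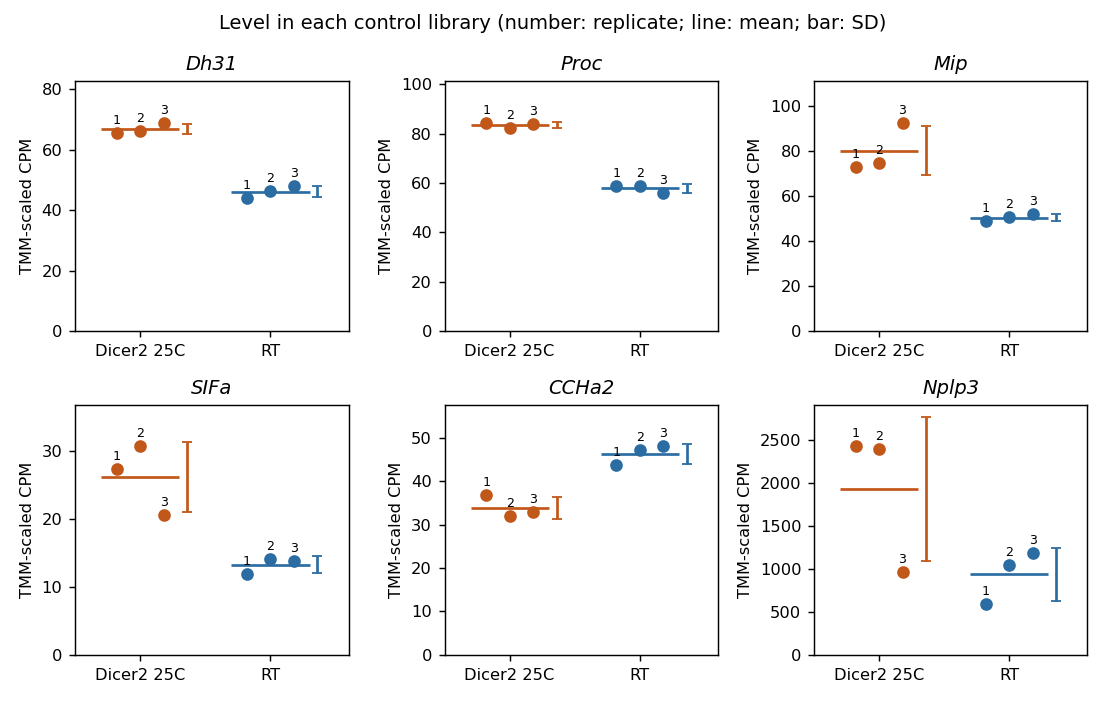
CPM of *Dh31*, *Proc*, *Mip*, *SIFa*, *CCHa2* and *Nplp3* in each library, with 1 point per library, the line at the group mean, the bar at ± SD (n = 3) and each axis starting at 0. The RT points lie below the Dicer2 25°C points in the panels of *Dh31*, *Proc*, *Mip* and *SIFa*, above them in that of *CCHa2*, and among them in that of *Nplp3*.

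These 5 calls depended on which libraries entered the fit: leaving out Dicer2 25°C replicate 2 or RT replicate 3 ended all 5 (0 members called), as did leaving out Dicer2 25°C replicate 1 together with RT replicate 3. Without Dicer2 25°C replicate 1 only *Dh31*, *Mip* and *Proc* kept an adjusted p under 0.05, and without RT replicate 2 only *Dh31* and *Proc*, while the direction stayed the same for all 5 genes in every fit. The share of all genes called moved as well, to 1.76% and 0.422% without Dicer2 25°C replicates 1 and 2, 1.56% and 0.858% without RT replicates 2 and 3, and 0.0977% without the pair.

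Among the members that did not pass, 7 had groups that did not overlap and an adjusted p under 0.2. In the convertase gene *amon* (654 residues) the libraries held 405, 388 and 328 CPM in the Dicer2 25°C control and 292, 310 and 304 CPM in the RT control, with a log2 fold change of -0.31 (SE 0.10, adjusted p = 0.0923, edgeR quasi-likelihood test). *Tk* had 87.7, 87.1 and 102 CPM against 68.3, 79.2 and 79.1 CPM, with a log2 fold change of -0.29 (SE 0.10, adjusted p = 0.0958, edgeR). The RT libraries of both genes were all below those of the other group, by 19.1% for *amon* and 18.2% for *Tk* in the fitted mean.

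*NPF* held 30.3, 29.5 and 38.1 CPM in the Dicer2 25°C libraries and 27.3, 26.1 and 24.4 CPM in the RT libraries (log2 fold change -0.33, SE 0.11, adjusted p = 0.106, edgeR). *sNPF* held 122, 118 and 114.5 CPM against 102, 105 and 108 CPM (log2 fold change -0.17, SE 0.06, adjusted p = 0.109, edgeR). The gap between the groups was narrow for both of these feeding peptides. *ITP* had 132, 129 and 120 CPM in the first group and 109, 109 and 116 CPM in the second (log2 fold change -0.20, SE 0.07, adjusted p = 0.101, edgeR), and 6.3% of its exon bases lie over exons of *CG4622* on the opposite strand.

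The low members *Nplp4* and *AstCC* complete this group. *Nplp4*, a neuropeptide-like precursor of 64 residues, had 9.74, 9.84 and 12.9 CPM in the Dicer2 25°C libraries and 7.30, 8.51 and 8.86 CPM in the RT libraries (log2 fold change -0.40, SE 0.14, adjusted p = 0.114, edgeR). *AstCC*, the partner of *AstC* and its neighbour on chromosome 2L, 2059 bases away on the same strand, had 18, 26 and 21 counts against 18, 13 and 16 counts. Scaled to depth this was 0.943, 1.02 and 0.896 CPM against 0.549, 0.308 and 0.487 CPM, a log2 fold change of -1.10 (SE 0.28, adjusted p = 0.0519, edgeR). The CPM of the groups did not overlap while the raw counts did, the RT libraries being the deeper ones.

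*Nplp3* had the largest difference in CPM, with 1926 ± 837 CPM in the Dicer2 25°C control and 937 ± 309 CPM in the RT control (SD, n = 3). Its log2 fold change of -1.04 (SE 0.41) did not pass the test over all 6 libraries (adjusted p = 0.141, edgeR quasi-likelihood test). Leaving out Dicer2 25°C replicate 3 brought the adjusted p to 0.0333, and 9 members (32.1%, against 18.6% of all genes) were then called, *Hug*, *ITP* and *amon* among them. That replicate is the farthest of its group for *Nplp3*, so leaving it out lowers the spread by construction. Of the marker lists, muscle (2 of its 3 genes measured, *Mhc* and *up*) had summed levels of 6996, 6901 and 3614 CPM in the Dicer2 25°C libraries and 3292, 4348 and 4278 CPM in the RT libraries. Their part in the level of *Nplp3* was not tested.

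Members took 0.448%, 0.437% and 0.317% of all reads in the Dicer2 25°C libraries and 0.209%, 0.275% and 0.284% in the RT libraries. Without *Nplp3* the other 30 genes summed to 1949, 1917 and 2011 CPM in the Dicer2 25°C control and 1636, 1725 and 1753 CPM in the RT control. The libraries of the groups did not overlap in this sum, which has a mean of 1959 ± 47.8 CPM against 1705 ± 61.1 CPM (SD, n = 3). Part of this sum is *amon*, which is no precursor, with means of 374 CPM in the Dicer2 25°C control and 302 CPM in the RT control.

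Within the groups the members varied about as much as other genes. The median range over the 3 libraries of a group, on the scale of log2(CPM + 0.5), was 0.272 for the members and 0.242 for all genes in the Dicer2 25°C control, and 0.186 and 0.201 in the RT control. In the Dicer2 25°C control, 5 members (17.9%, against 16.1% of all genes) had a range above 0.5: *Nplp3* (1.34), *Dsk* (0.89), *Orcokinin* (0.76), *SIFa* (0.57) and *Hug* (0.56). In the RT control there were 2 (7.1%, against 14.6% of all genes), *Nplp3* (1.0) and *Lk* (0.56).

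The spread came largely from the same libraries. Dicer2 25°C replicate 3 was the farthest from the median of its group for 24 of the 28 members, 85.7%, against 56.5% of all genes. It was the highest library for 16 of the 28, 57.1%, against 44.1% of all genes. RT replicate 1 was the farthest for 19 members, 67.9%, against 56.4% of all genes. It was the lowest library for 17 of the 28, beside 3911 of all 10187 genes tested. *Orcokinin*, which encodes orcokinin peptides, shows the pattern: it had 37.9, 41.8 and 64.6 CPM in the Dicer2 25°C libraries and 43.4 to 50.7 CPM in the RT libraries, RT replicate 1 being the lowest, with a log2 fold change of -0.00 (SE 0.20, adjusted p = 0.994, edgeR quasi-likelihood test). These 2 libraries are those with high clock genes: *tim* was at 509 CPM in Dicer2 25°C replicate 3 against 111 and 114 CPM in its group, and at 926 CPM in RT replicate 1 against 188 and 193 CPM. The part of the clock genes in the levels of the members was not tested.

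**Figure D4:**
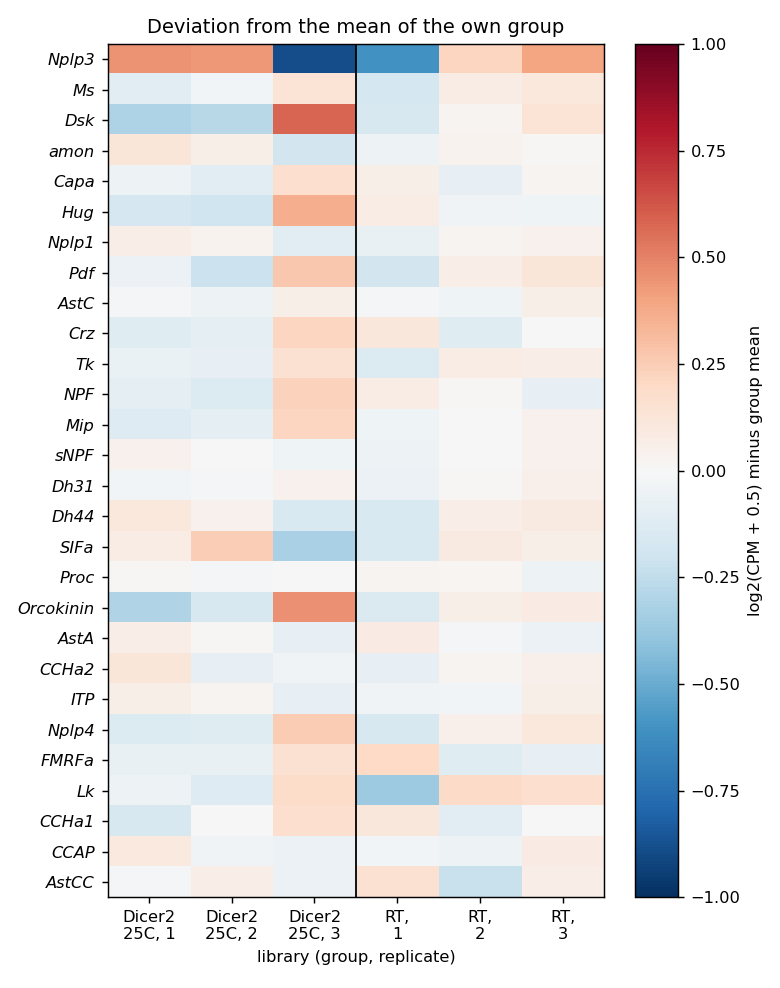
Deviation of each library from its group mean on the scale of log2(CPM + 0.5), for the 28 neuropeptide genes tested (rows) in the 6 libraries (columns). The strongest colours are those of *Nplp3* in Dicer2 25°C replicate 3 and RT replicate 1, both below the group mean, and of *Dsk* in Dicer2 25°C replicate 3, above it. In that replicate *Hug* and *Orcokinin* also lie above and *SIFa* below the other libraries. *Nplp3* is also strongly coloured in Dicer2 25°C replicates 1 and 2 and RT replicate 3, above the group mean.

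Without those 2 libraries, 16 of the 28 members had an adjusted p under 0.05, 57.1%, against 36.6% of all genes (3753 of 10266, edgeR quasi-likelihood test). This fit, with 2 libraries a group, was chosen after the data were seen, and leaving out the libraries farthest from their groups lowers the spread by construction. All 5 members called over 6 libraries were among the 16. Of the 16, 12 were lower in the RT control and 4 higher: *CCHa2*, *Hug* (log2 fold change 0.40), *Dsk* (0.32) and *Orcokinin* (0.34). For *Dsk* and *Orcokinin* the direction turned from that over all 6 libraries. *Nplp3* (-1.12), *SIFa* (-1.06) and *AstCC* (-1.32) passed both thresholds in this fit, beside 560 of all 10266 genes tested.

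Neuropeptide receptors, which are G protein-coupled, were measured alongside. Their list also holds *TrissinR*, *ETHR*, *CNMaR*, *Lgr1* and *rk*, whose ligands are not among the members. All 36 receptor genes of the list were tested, at levels from 0.517 CPM per kb (*AstA-R2*) to 18.9 CPM per kb (*AkhR*, the receptor of adipokinetic hormone). None passed both thresholds (19 had an unadjusted p under 0.05, 52.8% against 30.7% of all genes, and DESeq2 and the likelihood ratio test gave 0 as well). At an adjusted p under 0.05 alone, 2 of the 36 were called, 5.6% against 10.1% of all genes, and both fell (4.83% of all genes lower). *CCAP-R*, the receptor of the crustacean cardioactive peptide, fell from 4.44 ± 0.0561 to 2.82 ± 0.187 CPM (SD, n = 3; log2 fold change -0.65, SE 0.12, adjusted p = 0.0253, edgeR). *TrissinR*, the receptor of the cysteine-rich peptide trissin, fell from 28.9 ± 1.64 to 23.4 ± 0.724 CPM (log2 fold change -0.30, SE 0.07, adjusted p = 0.0443, edgeR). With 1 library left out the adjusted p of *CCAP-R* ran from 0.0267 to 0.113 and that of *TrissinR* from 0.0432 to 0.141 (edgeR), the first losing its call without replicates 1 or 2 of the Dicer2 25°C control or 2 or 3 of the RT control, the second without any library other than Dicer2 25°C replicate 3. The log2 fold change was below 0 for 27 of the 36 receptors, 75.0% against 50.5% of all genes, with a median of -0.23 against -0.004.

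The receptors of the 5 peptides that changed did not pass the test. *Dh31-R* had a log2 fold change of -0.04 (adjusted p = 0.756), *Proc-R* of 0.08 (adjusted p = 0.455), *SPR*, the sex peptide receptor to which the *Mip* peptides bind, of -0.23 (adjusted p = 0.106) and *SIFaR* of 0.13 (adjusted p = 0.646, all edgeR quasi-likelihood test). *CCHa2-R* was nearest to the threshold at a log2 fold change of -0.41 (adjusted p = 0.0515, edgeR), with the sign opposite to that of its ligand.

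Of the 15 listed genes for processing and secretion of peptides, 13 had a row, and *Phm* and *Pal1* were not analysed here. None had an adjusted p under 0.05, against 10.1% of all genes (2 had an unadjusted p under 0.05, 15.4% against 30.7%, and DESeq2 and the likelihood ratio test each gave 1 past both thresholds), and the median log2 fold change was -0.03. The lowest adjusted p were those of *Nep5*, a neprilysin-family peptidase (log2 fold change -1.19, SE 0.31, adjusted p = 0.0573, edgeR), of *amon*, given above, and of *Nep4*, another neprilysin (log2 fold change 0.26, adjusted p = 0.21, edgeR). The most strongly expressed genes of this list per kilobase were *IA-2*, a dense core vesicle protein, at 223 CPM per kb, and *Pal2*, an enzyme of the amidation step, at 183 CPM per kb. The transcription factor *dimm*, which promotes the neuroendocrine state, was at 0.492 CPM per kb.

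Other peptide hormones that are not among the 32 genes were tested for 14 of 20 listed genes. None passed both thresholds (6 had an unadjusted p under 0.05, 42.9% against 30.7% of all genes, and DESeq2 and the likelihood ratio test each gave 1), and 4 of the 14 had an adjusted p under 0.05, 28.6% against 10.1% of all genes. The insulin-like peptides *Ilp6*, made mainly in fat body, and *Ilp2*, made in the insulin-producing cells of the brain, rose. *Ilp6* went from 30.9 ± 1.54 to 57.2 ± 1.75 CPM (SD, n = 3; log2 fold change 0.89, SE 0.07, adjusted p = 0.00298, edgeR). The summed fat body markers were higher in the RT libraries as given above, but those of *Yp2* and *Lsp2* overlapped between the groups. The part of fat body in the level of *Ilp6* was not tested. *Ilp2* went from 68.1 ± 4.43 to 107 ± 4.91 CPM (log2 fold change 0.65, SE 0.07, adjusted p = 0.00915, edgeR). *Trissin*, the ligand of *TrissinR*, fell from 29.6 ± 4.82 to 19.7 ± 1.32 CPM (log2 fold change -0.59, SE 0.13, adjusted p = 0.0363, edgeR), and *natalisin*, a tachykinin-related peptide, from 26.4 ± 0.991 to 21.0 ± 1.64 CPM (log2 fold change -0.33, SE 0.08, adjusted p = 0.0497, edgeR). The ligand *Trissin* and its receptor both fell. *Ilp6* kept its call with any 1 library left out (adjusted p 0.00365 to 0.0281, edgeR) and lost it without Dicer2 25°C replicate 1 and RT replicate 3 together. *Ilp2* lost its call without Dicer2 25°C replicate 2 or RT replicate 3 (up to 0.0577), *Trissin* also without Dicer2 25°C replicate 1 or RT replicate 2 (up to 0.113), and *natalisin* without any 1 library (0.0548 to 0.151). The subunit gene *Gpa2* had 0 counts in all 6 libraries.

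**Figure D5:**
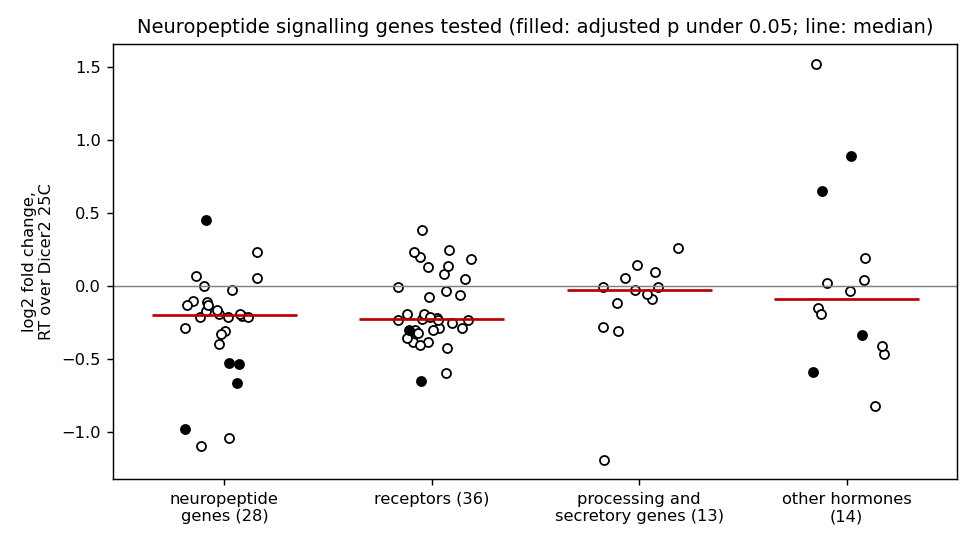
Log2 fold change of RT over Dicer2 25°C for the tested genes of 4 lists, 28 neuropeptide genes, 36 receptors, 13 processing and secretory genes and 14 other hormones, with 1 point per gene, filled where the adjusted p was under 0.05, and a red line at the median of each list. The medians of the neuropeptide genes (-0.20) and of the receptors (-0.23) lie below 0.

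The 32 genes are spread over the genome, with 14 on 3R, 6 on 2L, 6 on 2R, 5 on 3L and 1 on X. The 5 genes called lie on 2L, 2R, 3L and 3R. Exons of *Lk* are covered for 93.0% by an antisense RNA, *asRNA:CR44843*, with 256 counts over the 6 libraries, and smaller overlaps with a gene on the opposite strand concern *CCAP* (6.2%) and *amn* (3.5%), so their counts are uncertain in the same way as those of *SIFa*.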

How the data were processed

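RNA was extracted from pools of heads of female flies and sequenced as stranded, poly(A)-selected, single-end libraries. The authors trimmed reads with Trimmomatic (version 0.36), aligned them with TopHat2 (2.1.0 per the submitters' processing notes) to fly release 6.08 and counted reads per gene with HTSeq (0.6.1). The deposited values are raw counts per gene, not normalized and not pooled, and the strand setting is not given in the sources used here. HTSeq's classes without a gene were left out (no feature 3.16% to 4.76%, ambiguous 2.36% to 3.62% of the reads considered).

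Of 17559 gene identifiers, 17253 matched the BDGP6.54 annotation, used for names, lengths and coordinates of the same Release 6 assembly. CPM were scaled with TMM in edgeR (version 4.0.16, R 4.3.3). RT was compared with Dicer2 25°C by the quasi-likelihood test after edgeR's expression filter (10187 genes), with Benjamini-Hochberg adjustment over all genes and group as the only term. Standard errors were obtained by dividing log2 fold changes by the root of the F statistic. Both thresholds (adjusted p 0.05, absolute log2 fold change 1) follow the study's methods, and adjusted p alone was used beside them. Groups come from the sample labels. The script was tested on simulated counts.

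Values per library are given for genes past the threshold, for the 8 highest per kilobase, and for genes whose groups do not overlap with an adjusted p under 0.2. Of the other lists, genes past the threshold or else the 3 with the lowest adjusted p are named. Other genes named, among them *Lst* and the receptors of the changed peptides, were chosen after their values were seen. The members and lists were chosen with earlier results of these data known. Alternatives were other scalings, DESeq2 (1.42.0), the likelihood ratio test, other filters, a replicate block and fits without libraries.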

Additional observations from a re-analysis of the deposited data

How the results depend on the processing

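Over 15 alternatives for each of the 28 neuropeptide genes, 364 of 420 fold changes kept their direction and their side of an adjusted p of 0.05, 22 lost the call, 19 gained it in the same direction and 15 turned direction, in 7 genes. Of the 15, those of *Dsk* (adjusted p = 0.00759) and *Orcokinin* (0.0112, edgeR) without the libraries high in clock genes also gained the call. With 1 library left out the log2 fold change ran from -0.005 to 0.145 for *Capa* (turned without Dicer2 25°C replicate 2), -0.097 to 0.05 for *Dh44* (without Dicer2 25°C replicate 1 or RT replicate 1), -0.268 to 0.246 for *Dsk* and -0.149 to 0.268 for *Orcokinin* (both without Dicer2 25°C replicate 3, *Orcokinin* also without RT replicate 1), and -0.04 to 0.151 for *FMRFa* (without RT replicate 1). It turned for *Capa* to -0.003 with upper-quartile scaling, for *Dh44* to 0.004 and for *Orcokinin* to 0.025 with no filter, and for *Orcokinin* to 0.034 with the replicate block. With both libraries high in clock genes left out it turned for *Dsk* (0.324), *Lk* (0.078), *Orcokinin* (0.335) and *Pdf* (0.027). The cause was not tested.

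Members past both thresholds numbered 0, but 2 with upper-quartile scaling, 2 with DESeq2, 1 with the likelihood ratio test, 1 with at least 10 counts per library, 3 without the libraries high in clock genes, 5 with no fold threshold and 0 to 2 with 1 library left out. Members at an adjusted p under 0.05 numbered 5, but 8 with DESeq2, 3 with the replicate block, 0 without Dicer2 25°C replicate 1 and RT replicate 3, 16 without the libraries high in clock genes and 0 to 9 with 1 library left out. All genes past both thresholds numbered 287, but 437 with DESeq2, 495 with the likelihood ratio test, 91 with the block, 10 and 560 without those pairs of libraries, 1030 with no fold threshold and 33 to 438 with 1 library left out. They numbered 309 of 10187 with upper-quartile scaling and 238 of 9639 with at least 10 counts per library. All genes at an adjusted p under 0.05 numbered 1030, but 1889 with DESeq2, 172 with the block, 10 and 3753 without those pairs and 44 to 1944 with 1 library left out. Receptors numbered 0, or 2 with no fold threshold. Processing genes numbered 0, or 1 with upper-quartile scaling, DESeq2 or the likelihood ratio test. Other hormones numbered 0, or 1 with DESeq2, 1 with the likelihood ratio test and 4 with no fold threshold. Upper-quartile scaling moved the median over all genes to -0.057 and that of the members to -0.255.

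With 1 library left out, the adjusted p (edgeR) ran from 0.00916 to 0.0647 for *Dh31*, 0.00632 to 0.0576 for *Proc*, 0.00632 to 0.0731 for *Mip*, 0.00595 to 0.0803 for *SIFa* and 0.0205 to 0.115 for *CCHa2*. The labels give both groups the same replicate numbers, but same-numbered libraries did not deviate together (r = -0.11, -0.01 and -0.00), so the block, which ended the calls of *CCHa2* (adjusted p = 0.0844) and *SIFa* (0.0557), says nothing of a weaker effect. Depth limits *RYa*, *amn* and *Akh*, which had 1 to 10 counts per library and were not tested, and with 3 libraries a group, small differences in the other genes could not be told from 0.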

Other observations

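Among the hormones that are no precursor of the list, *Lst* (limostatin, made in the corpora cardiaca and known to restrain insulin release) had a log2 fold change of 1.52 that did not pass the test (SE 0.44, adjusted p = 0.072, edgeR quasi-likelihood test). Its Dicer2 25°C libraries held 29.5, 50.9 and 43.3 CPM and its RT libraries 205, 74.0 and 76.9 CPM. All RT libraries were above the others, replicate 1 being the highest. *Akh*, made in the same gland, had 4, 6, 8, 6, 6 and 6 counts in Dicer2 25°C replicates 1 to 3 and RT replicates 1 to 3.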
